A study of Mus musculus with 24 samples.

Results

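RNA of the nucleoplasm and of the cytoplasm was compared gene by gene in mouse epiblast-like cells (EpiLC), a culture model of the epiblast just after implantation. The comparison rests on 6 of the 24 libraries of the study, 3 of each fraction, and on the 12834 of 29759 genes whose FPKM averaged 1 or more over the 12 EpiLC libraries. FPKM are fragments divided by transcript length and by library size, so they state a level per length within a library. EpiLC were derived from E14, an established line of mouse embryonic stem cells, by plating in N2B27 medium with 20 ng/ml activin A plus 12 ng/ml bFGF, and were harvested on day 3. Naive embryonic stem cells (nESC), used here as the second state, were E14 cells kept in N2B27 medium with the MEK inhibitor PD0325901, the GSK inhibitor CHIR99021 and LIF. Each state gave 3 libraries each of chromatin, nucleoplasm, cytoplasm and unfractionated (total) RNA, all depleted of ribosomal RNA. All libraries come from 1 cell line, and the labels do not say whether replicates are separate cultures, so p-values measure the spread between these libraries, which may be technical.

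The nucleoplasm is the part of the nucleus from which finished transcripts, once released from chromatin, pass through the nuclear pores to the cytoplasm. Most messages are found on cytoplasmic ribosomes, while some long noncoding RNAs, such as Malat1 of the nuclear speckles, stay in the nucleus. The outer nuclear membrane is continuous with the endoplasmic reticulum, where messages of secreted and membrane proteins are translated. Messages of the mitochondrial genome are made and translated inside mitochondria.

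Coding stretches of 6 messages are printed here because base composition and length marked the genes at both ends of the comparison. Each is 24 codons from the middle of the reading frame in GENCODE M21 (GRCm38), with G and C in capitals. The first 3 are the coding genes with the largest folds toward the nucleoplasm outside the genes with Zfp names, Rex2 and the mitochondrial genome. The other 3 lie toward the cytoplasm outside the histone genes. Hras was taken after its values were seen, because genes with larger folds had no complete frame of their own, shared bases with another gene or were noncoding.
Arhgap5, chr12:52503972-52571975, plus strand, codons 753 to 776 of 1503: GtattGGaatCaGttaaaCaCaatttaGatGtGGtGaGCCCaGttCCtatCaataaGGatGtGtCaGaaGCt
Ranbp2, chr10:58446920-58494356, plus strand, codons 1528 to 1551 of 3053: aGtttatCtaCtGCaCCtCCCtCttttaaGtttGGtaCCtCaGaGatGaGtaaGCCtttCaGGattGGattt
Taok1, chr11:77529162-77607815, minus strand, codons 502 to 525 of 1001: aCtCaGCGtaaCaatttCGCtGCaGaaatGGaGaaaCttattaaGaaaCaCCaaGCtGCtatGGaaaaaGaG
Dph3, chr14:32080566-32085729, minus strand, codons 42 to 65 of 82: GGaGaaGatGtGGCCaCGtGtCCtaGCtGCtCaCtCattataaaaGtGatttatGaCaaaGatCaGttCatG
Atp5e, chr2:174461072-174464105, minus strand, codons 27 to 50 of 52: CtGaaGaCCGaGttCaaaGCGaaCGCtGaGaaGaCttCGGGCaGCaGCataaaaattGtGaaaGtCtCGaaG
Hras, chr7:141189105-141194005, minus strand, codons 96 to 119 of 189: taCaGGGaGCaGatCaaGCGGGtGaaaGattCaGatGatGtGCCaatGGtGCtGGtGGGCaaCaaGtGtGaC
The whole frames of the first 3 hold 37.2%, 40.8% and 44.2% G and C. Those of Dph3, Atp5e and Hras hold 45.4%, 51.6% and 53.7%. At the third codon places the shares are 28.5%, 32.1% and 40.4% in Arhgap5, Ranbp2 and Taok1, against 53%, 69.8% and 64.7% in Dph3, Atp5e and Hras.

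The steps between low FPKM values put 67.8 to 77.1 fragments behind 1 FPKM of a transcript of 2 kb in the nucleoplasm libraries and 37.1 to 44.7 in the cytoplasm libraries, so low cytoplasmic values are the less precise. Summed FPKM ran from 786489 to 821863 in nucleoplasm and from 1555123 to 1721286 in cytoplasm, and histone and cytosolic ribosomal protein messages held more of the cytoplasmic sum than of the nucleoplasmic one. Pearson's r across genes was 0.991 to 0.995 among nucleoplasm libraries, 0.988 to 0.994 among cytoplasm libraries and 0.845 to 0.889 between the fractions. Cytoplasm replicate 3 stood apart toward the nucleoplasm: it was the highest cytoplasm library for 2125 of the 2579 genes called higher in nucleoplasm and the lowest for 2035 of the 2456 called lower. Mitochondrial messages made up 5.48%, 5.44% and 10.5% of the summed FPKM in nucleoplasm replicates 1 to 3 and 0.533%, 0.506% and 0.661% in cytoplasm, which goes against a nucleoplasm fraction of nuclear RNA alone. The name nucleoplasm is therefore kept as a label. Markers of the epiblast after implantation were present, with 33 of 38 listed genes passing the filter, and so were those of the naive state, with 26 of 30. Summed FPKM of these lists was 3950 to 4837 and 2796 to 3584 in nucleoplasm, and 3849 to 4340 and 5239 to 6941 in cytoplasm, where the naive sum was the higher. The median tested gene did not share this order, with 42.04 FPKM in cytoplasm for the epiblast list and 10.85 for the naive list. In total RNA the sums were 2483 to 2572 for the epiblast list and 2023 to 2061 for the naive list. Of the markers of other cells, 10 of 12 for primitive endoderm, 6 of 10 for trophectoderm, 6 of 11 for mesoderm and neural cells, 6 of 10 for fibroblasts and 10 of 13 for 2-cell-like cells were under 1 FPKM in every EpiLC library, Gata6, Cdx2 and T among them. Their summed FPKM in nucleoplasm and cytoplasm was 2.38 to 3.02 and 1.94 to 2.42 for primitive endoderm, 5.04 to 5.35 and 7.36 to 9.27 for trophectoderm, 34.2 to 41.5 and 21.9 to 25.1 for mesoderm and neural cells, mainly from Nes, 84.0 to 90.8 and 102 to 116 for fibroblasts, mainly from Vim, and 114 to 121 and 54.5 to 71.2 for 2-cell-like cells, mainly from Eif1a. Their part in the results was not tested.

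Of the 12834 genes, 2579 (20.1%) were called higher in nucleoplasm and 2456 (19.1%) lower, together 5035 (39.2%). A call needed an adjusted p under 0.05 by limma and at least a 2-fold difference on the log2(FPKM + 0.5) scale, which understates the change of low genes. The 3 nucleoplasm and 3 cytoplasm values did not overlap for 10426 genes (81.2%). Large folds lay mostly on the nucleoplasmic side: 997 genes were at least 4-fold higher and 225 at least 4-fold lower, and for 8-fold the counts were 302 and 10. The median log2 fold of all genes was -0.15, with quartiles of -0.84 and 0.74. This split follows the deposited scale. With each library scaled to one sum the median moved to 0.72 and the counts to 5140 higher and 219 lower, with each library centred on its median to -0.33 and 2196 against 3266, and with a correction for length and GC content to 0.13 and 2110 against 1002. List medians below are on the deposited scale, where all genes have -0.15. Those given with the sum scaling are to be read against 0.72 and those after the correction for length and GC content, called the correction below, against 0.13. In these bulk libraries fewer cells of a type and less RNA per cell cannot be told apart.

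**Figure D1:**
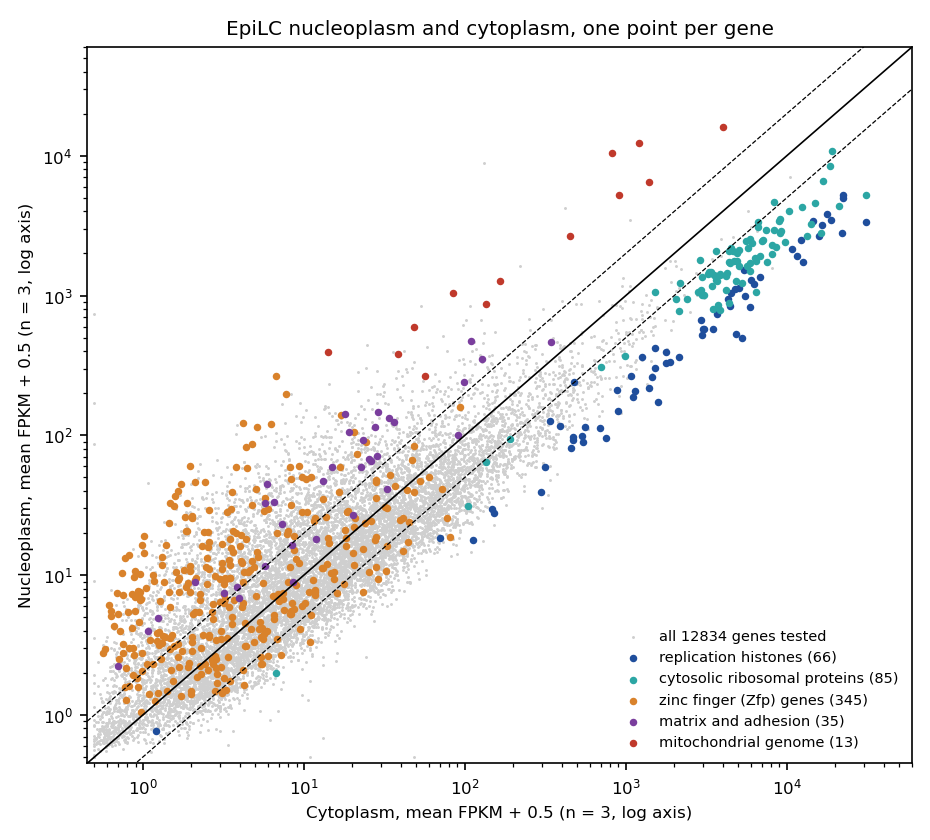
Mean level of every gene tested in cytoplasm (horizontal axis) and nucleoplasm (vertical axis), FPKM + 0.5 on log axes, 3 libraries each, with the line of equality and dashed lines at 2-fold. Histone and ribosomal protein genes lie below the line among the most abundant genes, mitochondrial messages lie above it, and zinc finger genes spread upward from low cytoplasmic levels.

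Of the genes with Zfp names, most of them DNA-binding proteins of which many repress transposable elements, 181 of 345 tested were higher in nucleoplasm and 23 lower, with a median log2 fold of 1.11. Zfp980 stood at 217, 269 and 312 FPKM in nucleoplasm and at 6.07, 5.86 and 6.68 in cytoplasm. Genes with clone or pseudogene names aside, it had the largest fold the naming rule gave, with a log2 difference of 5.30 ± 0.21 (SE, adjusted p = 1.06e-08, limma). The groups were far apart in all 6 libraries, and the chromatin mean of 255 FPKM was near that of nucleoplasm. Zfp988, Zfp987 and Zfp600 had log2 folds of 4.94, 4.86 and 4.67. Their neighbour Rex2 reached 4.94. These genes have near-identical copies, so the split of reads among them is uncertain. After the correction 112 of the 345 were higher and 9 lower, and Zfp980, Zfp988, Zfp987, Zfp600 and Rex2 came to 3.39, 3.03, 2.86, 2.68 and 2.98.

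The Zfp genes differed among themselves by genomic place. In 17 clusters, defined as 5 or more tested Zfp genes with gaps under 1 Mb, 104 of 180 genes were higher and 11 lower. The cluster on chromosome 4 between 145510759 and 147848366 (GRCm38) held 18 tested genes, all of them higher, with a median log2 fold of 4.21 and a median transcript GC content of 36.1%. On chromosome 2 between 175372436 and 178078476, 8 of 9 genes were higher with a median of 3.04. On chromosome 17 between 21008903 and 23599487 it was 20 of 22 with a median of 2.70, and on chromosome 13 between 66669928 and 67827002 it was 16 of 17 with a median of 2.45. The cluster on chromosome 7 between 4915217 and 5053723 lay on the other side: 0 of its 5 genes were higher and 2 were lower, with a median of -0.98 and a GC content of 63.5%. Outside clusters 77 of 165 genes were higher and 12 lower.

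Long messages of nuclear, cytoskeletal and mitotic proteins followed. Ranbp2, which codes for a large protein of the cytoplasmic filaments of the nuclear pore, stood at 97.0, 98.6 and 108 FPKM in nucleoplasm and at 2.73, 2.62 and 4.46 in cytoplasm. The groups were far apart, with a log2 difference of 4.79 ± 0.21 (adjusted p = 1.06e-08, limma). Arhgap5 stood at 52.8, 59.2 and 74.9 FPKM against 1.43, 1.59 and 2.24 (log2 4.80 ± 0.21). Taok1, a kinase upstream of stress-activated MAP kinases, had a log2 fold of 4.67 and Ktn1, a membrane protein that binds kinesin, 4.59. The correction brought Ranbp2 to 2.91, Arhgap5 to 1.69, Taok1 to 2.75 and Ktn1 to 2.94.

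Among 40 genes of mitosis 20 were higher and 3 lower, with a median of 1.04. Kif20b, a kinesin needed late in cell division, stood at 45.6, 50.9 and 50.2 FPKM in nucleoplasm and at 1.58, 1.31 and 2.21 in cytoplasm. Its 6 libraries did not overlap (log2 4.51 ± 0.21). Knl1, a scaffold of the kinetochore, had a log2 fold of 4.5 and Cenpe, a kinetochore motor, 3.91. The proliferation marker Mki67, whose protein coats mitotic chromosomes, reached 4.16. Kif20b and Knl1 came to 2.85 and 2.33 after the correction.

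Chromatin regulators had 41 of 72 genes higher and 5 lower, with a median of 1.28. Nipbl, the loader of cohesin, stood at 30.5, 34.0 and 40.4 FPKM in nucleoplasm and at 1.37, 1.25 and 1.89 in cytoplasm (log2 4.15 ± 0.22). Setd2, the methyltransferase of histone H3 lysine 36, reached 3.91, Tet1, which oxidises 5-methylcytosine, 3.78, and the cohesin subunit Smc3 3.70. Splicing factors and other genes described with detained introns had 25 of 48 higher and 1 lower, with a median of 1.10. Chromatin was the fraction with the highest mean for 32 of these 48. Prpf4b, a kinase of the spliceosome, stood at 60.8, 57.3 and 54.8 FPKM against 3.52, 3.93 and 9.02, the last being cytoplasm replicate 3 (log2 3.39 ± 0.25). Rbm25, a splicing regulator, reached 3.25 and Pnn, a protein of nuclear speckles, 2.95. After the correction 25 chromatin regulators were higher and 0 lower, and of the splicing list 13 were higher and 5 lower with a median of 0.42. Tet1, Prpf4b and Rbm25 came to 2.25, 1.83 and 1.37.

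Of 39 nuclear pore and export genes 10 were higher and 4 lower, a share of higher genes close to the 20.1% of all genes. Besides Ranbp2 the largest folds among them were 3.54 for Tpr of the nuclear basket, 3.22 for Thoc2 of the TREX export complex and 2.78 for the exportin Xpo1. After the correction 5 were higher and 2 lower, Xpo1 came to 1.29 and Thoc2 to 0.70, short of a call. Genes of long genomic span had 15 of 27 higher and 0 lower, with a median of 1.30. The correction left 10 higher and 2 lower with a median of 0.08. Vps13a, a lipid transfer protein, had a log2 fold of 3.89 and Macf1, a linker of actin and microtubules, 3.69, which became 1.62 and 2.23.

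**Figure D2:**
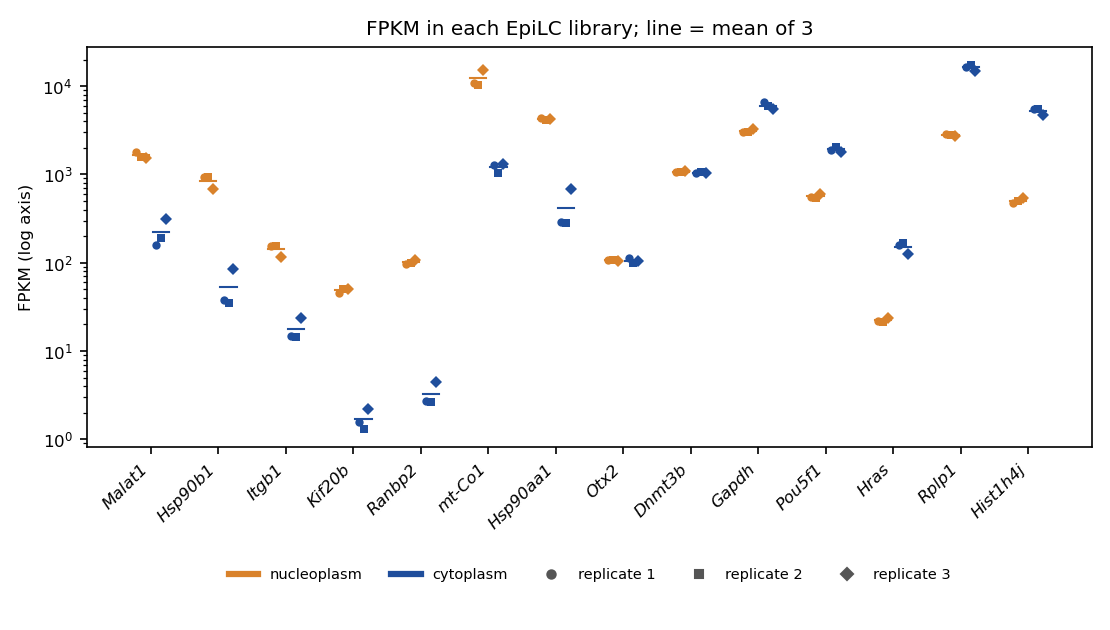
FPKM of 14 genes in each of the 6 libraries on a log axis, nucleoplasm in orange and cytoplasm in blue, with the mean of 3 as a line and the replicate as the marker shape. Cytoplasm replicate 3 (diamonds) lies above the other cytoplasm libraries for genes higher in nucleoplasm, such as Hsp90b1 at 38, 35.2 and 85.0.

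Some messages of the endoplasmic reticulum and most of the matrix and adhesion list were higher in nucleoplasm as well. A pair of N-terminal stretches shows the hydrophobic start of such proteins, given as 19 codons from the first one, with T at the second place of a codon in capitals, a place at which T codes for hydrophobic residues.
Hspa5, chr2:34771970-34777547, plus strand: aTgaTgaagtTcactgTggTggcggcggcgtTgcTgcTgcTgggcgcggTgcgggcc
Hsp90b1, chr10:86690209-86705509, minus strand: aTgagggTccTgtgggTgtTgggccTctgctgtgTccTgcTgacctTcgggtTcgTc
T stood at the second place of 10 of the 19 codons in Hspa5 and of 12 in Hsp90b1. The mean hydropathy of these windows on the Kyte-Doolittle scale was 1.78 and 2.18.

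Hsp90b1 and Hspa5 code for the main chaperones of the endoplasmic reticulum. Hsp90b1 stood at 932, 933 and 679 FPKM in nucleoplasm and at 38, 35.2 and 85.0 in cytoplasm, a log2 difference of 4.10 ± 0.32 (adjusted p = 2.23e-07, limma). Hspa5 stood at 716, 732 and 547 FPKM against 106, 106 and 163, a log2 difference of 2.42 ± 0.29 (adjusted p = 9.05e-06, limma). In both genes the fractions did not overlap, and replicate 3 was the lowest nucleoplasm library and the highest cytoplasm library. In the whole list of the secretory pathway 20 of 52 genes were higher and 2 lower, with a median of 0.52. Sec62 of the translocon reached 3.19, Magt1 of the oligosaccharyltransferase 2.99 and the lectin chaperone Canx 2.76. After the correction 23 genes of this list were higher and 1 lower, with a median of 0.82, and Magt1 came to 1.9.

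Of 35 tested matrix and adhesion genes 27 were higher and 0 lower, with a median of 1.67, and all 35 folds were above 0 on the deposited scale. The nucleoplasm had the highest mean of the 3 fractions for 34 of them. Itgb1, the beta chain shared by many integrins, stood at 156, 153 and 117 FPKM in nucleoplasm and at 14.6, 14.3 and 23.8 in cytoplasm (log2 3.01 ± 0.30). Its groups did not overlap. Lamb1, a laminin chain of basement membranes, stood at 105, 105 and 104 FPKM against 17.7, 15.8 and 22.3 (log2 2.47 ± 0.21). Plod2, a lysyl hydroxylase of collagens, reached 2.94 and the integrin chain Itgav 2.57. The GC content of this list, with a median of 53%, was above that of the other lists on the nucleoplasmic side, and its median after the correction was 1.75, with 33 of 35 genes higher. Itgav came to 1.29.

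Lysosomal genes had 15 of 27 higher and 0 lower, with a median of 1.08. After the correction 19 were higher and 1 lower, with a median of 1.25. Lamp2, a membrane protein of lysosomes, reached 3.15, Atp6ap2 of the proton pump 2.70 and the protease Ctsl 1.95. Solute carriers had 40 of 181 higher and 12 lower, with a median of 0.20. The share of higher genes was 22.1%, near that of all genes. The zinc importer Slc39a10 reached 3.04 and the bicarbonate transporter Slc4a7 3.20. The transferrin receptor Tfrc stood at 320, 301 and 241 FPKM against 23.6, 20.7 and 39.1 (log2 3.39 ± 0.23), and both chains of the LIF receptor were higher, Lifr by 2.15 and Il6st by 1.40 on the log2 scale, the latter 0.72 and short of a call after the correction. Lamp2, Ctsl, Slc4a7, Tfrc and Lifr came to 1.62, 1.25, 1.31, 1.92 and 1.01 after it. Nucleoplasm replicate 3 was the lowest of the 3 nucleoplasm libraries for 51 of 52 secretory, 31 of 35 matrix and 24 of 27 lysosomal genes, by a median of -0.32 on the log2 scale in each of these 3 lists. Its part in the values of these genes was not tested.

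All 13 messages of the mitochondrial genome were higher in nucleoplasm, with a median of 2.89, and for all 13 the nucleoplasm had the highest mean of the 3 fractions. The mt-Co1 message, of a cytochrome c oxidase subunit, stood at 10977, 10433 and 15407 FPKM in nucleoplasm and at 1276, 1026 and 1305 in cytoplasm (log2 3.34 ± 0.45). Nucleoplasm replicate 3 was the highest of the 3 for 13 of 13 of these genes, by a median of 0.98 on the log2 scale. The folds ran from 1.94 for mt-Co3 to 4.74 for mt-Nd6, the one message of the 13 that is read from the minus strand. It stood at 255, 291 and 640 FPKM against 13.3, 9.23 and 18.3, and the groups did not overlap. After the correction 9 of the 13 were called higher, with a median of 1.81. The mt-Nd6 message came to 2.95, and mt-Co3 was among the 4 calls lost (1.14, adjusted p = 0.0594, limma). How far mitochondria sediment with nuclei in this protocol was not tested, and the mitochondrial share of FPKM is the value that moved with the fraction.

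For 18 of 20 tested nuclear noncoding RNAs the mean FPKM of chromatin was the highest of the 3 fractions. Against cytoplasm, 4 of 20 were higher in nucleoplasm and 1 lower, a share of higher genes near the 20.1% of all genes, with a median of 0.34. The counts were 11 and 0 with the sum scaling and 3 and 7 after the correction, where the median turned to -0.50. Malat1 stood at 1800, 1576 and 1545 FPKM in nucleoplasm and at 157, 191 and 315 in cytoplasm, with 4545 as the chromatin mean. The nucleoplasm and cytoplasm values did not overlap (log2 2.95 ± 0.22, adjusted p = 1.75e-07, limma). Tug1, a noncoding RNA found in both compartments, reached 2.28 and the imprinted Meg3 1.57. Neat1, the backbone of paraspeckles, stood at 3.15, 3.18 and 4.27 FPKM against 3.98, 4.0 and 5.03, and the groups overlapped (log2 -0.27 ± 0.13, adjusted p = 0.0832, limma). After the correction Malat1 came to 1.86, and Tug1, Meg3 and Neat1 to 0.05, 0.76 and -1.41, which ends the calls of Tug1 and Meg3 and makes one of Neat1. Meg3 came to 2.59 with the sum scaling.

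Spliced host RNAs of snoRNAs were listed together with cytosolic long noncoding RNAs, called the host RNA list below. This list lay on the other side on the deposited scale, with 1 of 15 higher, 6 lower and a median of -0.85. With the sum scaling 2 were higher and 2 lower, and the median of 0.18 was above 0 but still under the 0.72 of all genes. For 11 of the 15 the nucleoplasm had the lowest mean of the 3 fractions. Snhg20 stood at 47.6, 59.3 and 34.4 FPKM in nucleoplasm and at 329, 426 and 258 in cytoplasm (log2 -2.83 ± 0.26). Snhg8 followed at -2.29, and with the sum scaling the pair came to -1.80 and -1.25. The growth-arrest transcript Gas5 stood at 30.8, 29.5 and 43.8 FPKM against 36.3, 35.8 and 30.9, which overlapped, with 274 as the chromatin mean.

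Histone genes were the list farthest toward the cytoplasm: 64 of 66 tested were lower in nucleoplasm and 0 higher, with a median of -2.40 on the deposited scale and -1.36 with each library scaled to one sum. With that scaling 57 were lower, and after the correction 48. Hist1h4j stood at 470, 495 and 535 FPKM in nucleoplasm and at 5453, 5562 and 4756 in cytoplasm. The difference of -3.39 ± 0.16 on the log2 scale (adjusted p = 1.11e-08, limma) was the largest toward the cytoplasm that the naming rule gave outside genes with clone or pseudogene names. By class the medians were -2.11 for 6 H1, -2.34 for 19 H2A, -2.41 for 16 H2B, -2.46 for 12 H3 and -2.83 for 13 H4 genes. Hist1h3c, an H3 gene, had a log2 fold of -3.16, or -1.87 after the correction. Copies of one histone are near identical, so the values of single genes are uncertain. Histone variants made outside the clusters were lower too, with -1.71 for H2afz, -2.04 for H2afx and -1.12 for H3f3b. With the sum scaling H2afz came to -0.68 and H3f3b to -0.08, and after the correction H2afx to -0.72, each short of a call. H2afz came to -1.06 after the correction and H2afx to -1.01 with the sum scaling.

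Messages of short proteins of the ribosome and of mitochondria lay on the cytoplasmic side. Of 85 cytosolic ribosomal protein genes 78 were lower and 0 higher, with a median of -1.45 on the deposited scale. With the sum scaling 12 were lower and the median was -0.41, and after the correction 24 were lower with a median of -0.66. Rplp1, of the ribosomal stalk, stood at 2881, 2815 and 2725 FPKM in nucleoplasm and at 16650, 17296 and 14991 in cytoplasm (log2 -2.54 ± 0.30). Rps2 followed at -2.59 and Rpl41 at -2.58. Rplp1, Rps2 and Rpl41 came to -1.5, -1.55 and -1.54 with the sum scaling, and to -1.25, -1.44 and -1.33 after the correction. Mitochondrial ribosomal proteins had 53 of 77 lower and 0 higher, with a median of -1.15. With the sum scaling 2 were lower and 5 higher with a median of -0.12, and after the correction 21 were lower and 0 higher. Nuclear genes of the respiratory chain had 39 of 81 lower and 2 higher, with a median of -0.98. With the sum scaling 4 were lower and 7 higher with a median of 0.06, under the 0.72 of all genes, and after the correction 10 were lower and 2 higher with a median of -0.08. Atp5e, a small subunit of ATP synthase, stood at 49.6, 62.6 and 46.2 FPKM against 405, 415 and 301 (log2 -2.81 ± 0.20). It came to -1.77 with the sum scaling and to -1.68 after the correction.

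Proteasome genes had 10 of 38 lower and 1 higher with a median of -0.73, and glycolysis genes 3 of 17 lower and 0 higher with a median of -0.61. These medians were 0.30 and 0.42 with the sum scaling, above 0 but under the 0.72 of all genes. With that scaling 5 proteasome and 3 glycolysis genes were higher, and 0 genes of either list were lower. Translation factors were split, with 12 of 60 higher and 18 lower, or 7 and 7 after the correction. Eif3a, a large subunit of initiation factor 3, stood at 293, 301 and 313 FPKM against 18, 18.2 and 35.8 (log2 3.70 ± 0.24), and Eif5b, which joins the ribosomal subunits, at 3.08 on the log2 scale, or 1.92 after the correction. Ribosome biogenesis genes had 12 of 35 higher and 5 lower, and p53 and apoptosis genes 3 of 24 higher and 8 lower, or 0 and 3 after the correction. Bax, which permeabilises the outer mitochondrial membrane, stood at 136, 136 and 141 FPKM against 701, 730 and 615 (log2 -2.30 ± 0.13), and Bad, another member of the BCL2 family that promotes cell death, had -2.07. Bax came to -1.27 and Bad to -1.07 with the sum scaling, and to -1.05 and -1.0 after the correction. Other large folds toward the cytoplasm belonged to Selenow, a selenoprotein, with -3.13, Dph3, of diphthamide synthesis, with -2.90 and the small GTPase Hras with -2.72. Dph3 and Hras came to -1.87 and -1.69 with the sum scaling, and Selenow to -1.82 after the correction.

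Among chaperones of the cytosol and of mitochondria, counted as one list, 4 of 25 were higher and 3 lower. Hsp90aa1, the inducible form of HSP90, stood at 4318, 4141 and 4194 FPKM in nucleoplasm and at 290, 281 and 676 in cytoplasm. The difference was 3.47 ± 0.29 on the log2 scale, and cytoplasm replicate 3 was the highest cytoplasm library.

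**Figure D3:**
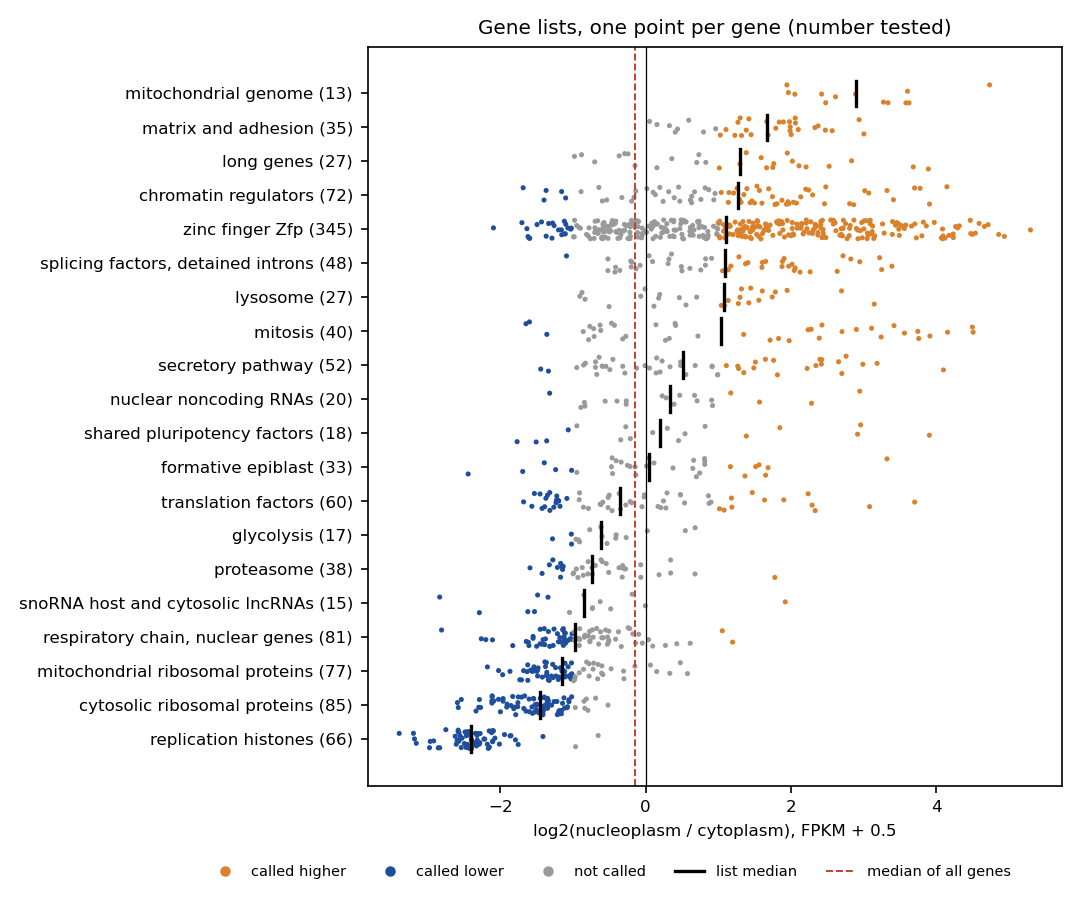
Log2 ratio of nucleoplasm to cytoplasm (FPKM + 0.5) of each tested member of 20 gene lists, coloured by call, with the list median as a bar and the median of all genes, -0.15, as a dashed line. List medians run from 2.89 for the mitochondrial genome to -2.40 for histones on the deposited scale. With each library scaled to one sum the median of all genes is 0.72, and the medians of the respiratory chain, host RNA, proteasome, glycolysis and translation lists are above 0 but stay under it.

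Genes of the epiblast state did not share one side on the deposited scale. Formative epiblast genes had 7 of 33 higher and 5 lower with a median of 0.04, shared pluripotency factors 5 of 18 higher and 4 lower with a median of 0.20, and naive genes 5 of 26 higher and 2 lower with a median of 0.16. With each library centred on its median these became -0.14, 0.02 and -0.02. With the sum scaling the medians were 1.08, 1.22 and 1.1, against 0.72 for all genes. There 18, 10 and 15 genes were higher and 1, 0 and 0 lower. After the correction the medians were 0.80, 0.80 and 0.31, against 0.13 for all genes. Then 15, 5 and 6 genes were higher and 1, 0 and 0 lower. Otx2, a homeobox factor of the formative epiblast, stood at 108, 107 and 104 FPKM in nucleoplasm and at 112, 98.2 and 105 in cytoplasm, and the groups overlapped (log2 0.01 ± 0.09, adjusted p = 0.893, limma). Dnmt3b, a DNA methyltransferase of the epiblast, stood at 1073, 1063 and 1103 FPKM against 1044, 1060 and 1036, which did not overlap but differed little (log2 0.04 ± 0.09, adjusted p = 0.668, limma). Fgf5, a ligand made by epiblast cells, stood at 51.9, 50.7 and 42.9 FPKM against 54.4, 55.6 and 49.4, and the groups overlapped. None of these 3 genes was called on the deposited scale, while with each library scaled to one sum Otx2 and Dnmt3b came to 1.04 and 1.08, past the fold of a call.

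Pou5f1, the core factor Oct4, stood at 551, 539 and 598 FPKM in nucleoplasm and at 1884, 2059 and 1812 in cytoplasm. It was lower in nucleoplasm in every pair of libraries, with a log2 difference of -1.77 ± 0.12 (adjusted p = 1.04e-07, limma). Rif1, Zfp281 and L1td1 of the shared pluripotency list lay the other way, with log2 folds of 3.91, 2.92 and 2.96. Rif1 came to 1.88 after the correction. The RNA-binding proteins Lin28a and Lin28b, which both block let-7 maturation, parted. Lin28a stood at 94.8, 93.1 and 102 FPKM against 258, 263 and 226 (log2 -1.36 ± 0.08). With each library scaled to one sum, Pou5f1 came to -0.73 and Lin28a to -0.33, and with the correction to -0.69 and -0.91, short of a call. Lin28b stood at 22.4, 22.4 and 32.2 FPKM against 1.82, 1.42 and 3.34 (log2 3.32 ± 0.23), and the correction brought it to 1.65, still a call. The Lin28a transcript has a GC content of 50.1% and that of Lin28b 40.6%. The merged exons of each gene span 3996 bases for Lin28a and 9065 bases for Lin28b. Of the other formative genes Tead2, a partner of YAP, had -2.44 and the ETS factor Etv4 -1.69, the latter short of a call at -0.68 with the sum scaling and at -0.77 after the correction, while Sox11 had 1.69. Tead2 came to -1.41 with the sum scaling, and Sox11 to 2.61 with it and 1.11 after the correction.

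Base composition and length of the message went with these folds across genes. Of 11692 protein-coding nuclear genes with a complete reading frame, those with a transcript GC content under 40% were higher in nucleoplasm in 75.2% of cases and lower in 2.44%, with a median of 2.07 over 532 genes. At 45 to 50% the shares were 23.4% and 11.8% with a median of 0.16, and at 60% and over 1.56% and 40.9% with a median of -0.85. Proteins under 200 residues had 3.83% higher and 55.4% lower with a median of -1.10, and those of 800 residues and over 40% and 2.04% with a median of 0.66. Both features together separated the genes further. Of 84 genes under 40% GC with at least 800 residues, 97.6% were higher, and of 97 genes of at least 60% GC with under 200 residues, 79.4% were lower. Pearson's r across genes, which are not independent replicates, was -0.58 with GC content, -0.58 with GC at the third codon place and 0.51 with log2 protein length. GC content and length can also bear on how fragments are sampled into a library, and this was not tested beyond the correction, under which the list median of Zfp genes was 0.54, that of chromatin regulators 0.77 and that of histones -1.17. These lists lost distance from the median of all genes under it as well. The distance went from 1.26 to 0.40 for Zfp genes and from 1.43 to 0.63 for chromatin regulators. For histones it went from -2.25 to -1.31. The splicing list at 0.42, long genes at 0.08 and the respiratory chain at -0.08 came nearer still to all genes. Nuclear noncoding RNAs changed side, at -0.50.

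**Figure D4:**
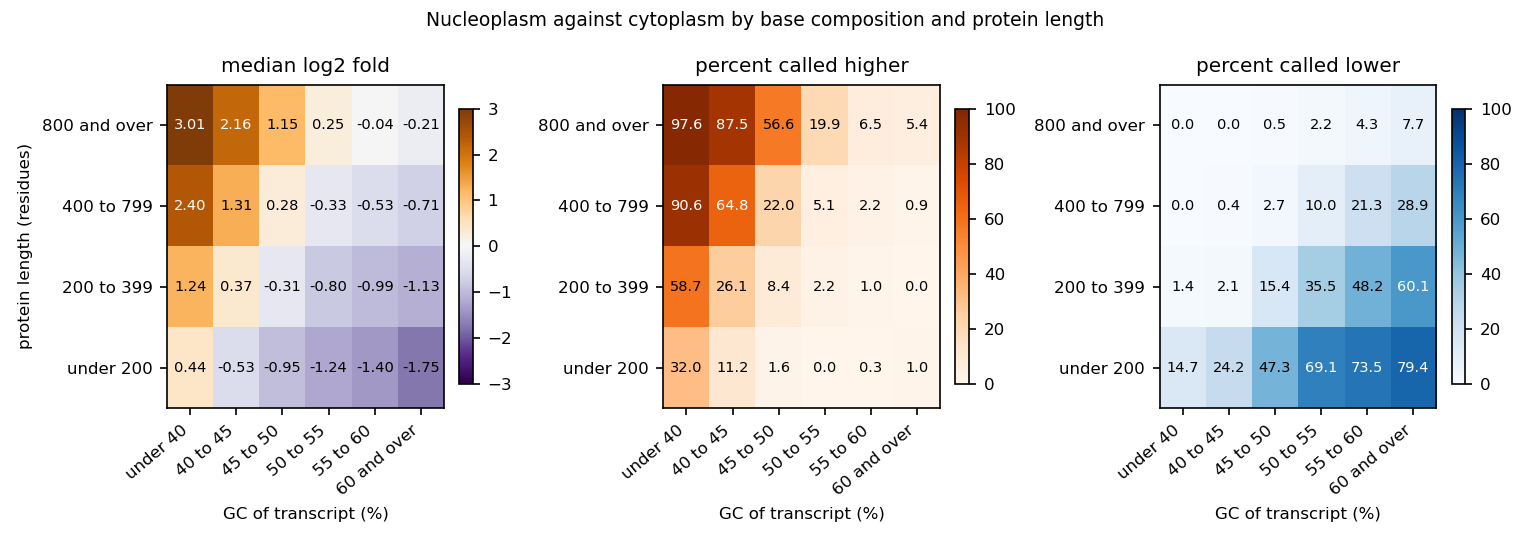
Protein-coding genes in classes of transcript GC content (columns) and protein length (rows), with the median log2 fold, the percent called higher and the percent called lower in nucleoplasm printed in each class. Long messages of low GC content are at the nucleoplasmic end, with a median of 3.01, and short messages of high GC content at the cytoplasmic end, with a median of -1.75.

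A hydrophobic window, 19 residues with a mean hydropathy of at least 1.6, marked a smaller shift. The 7989 coding genes without such a window had a median log2 fold of -0.30, and the 1216 with a window within the first 40 residues had 0.27, with 25.8% of them higher and 9.46% lower. In 21 of 23 classes of GC content and protein length with at least 20 genes each way, the median was higher among genes with a window. Of 322 lincRNA genes 22.7% were higher and 17.1% lower, near the 20.1% and 19.1% of all genes. Fewer of the 374 antisense genes were called, with 8.29% higher and 14.2% lower. Among the smaller classes, 9.38% of 32 processed pseudogenes were higher and 43.8% lower, 11.1% of 27 lncRNAs of bidirectional promoters were higher and 33.3% lower, and 14.3% of 56 sense intronic genes were higher and 0 lower. Of 181 processed transcripts 11.6% were higher and 17.1% lower.

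Levels in the 4 kinds of library place these genes further, and comparisons of nucleoplasm and of chromatin with cytoplasm share the cytoplasm libraries. Of the 2579 genes higher in nucleoplasm, 1280 had their highest fraction mean there and 1299 in chromatin. Of the 2456 lower genes, the nucleoplasm mean was the lowest of the 3 for 749 and between chromatin and cytoplasm for 1707. Zfp genes had chromatin highest in 219 of 345, matrix genes the nucleoplasm highest in 34 of 35, and cytosolic ribosomal proteins the cytoplasm highest in 85 of 85.

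The same contrast in nESC showed where EpiLC differ from the naive state. Over 11704 genes averaging 1 FPKM or more in both tables, each library centred on its median, 308 (2.63%) differed in their ratio of nucleoplasm to cytoplasm by the interaction test in limma. The ratio was higher in EpiLC for 131 (1.12%) and lower for 177 (1.51%). Of the histone genes 25 of 65 had a higher ratio in EpiLC and 0 a lower one, with a list median of -2.40 in EpiLC and -3.29 in nESC on the deposited scale. Mitochondrial messages had 6 of 13 higher, led by mt-Nd6 with a difference of 2.25 ± 0.42 (adjusted p = 0.00251, limma): its nESC libraries stood at 439, 442 and 606 FPKM in nucleoplasm and 91.1, 77.4 and 80.8 in cytoplasm. The host RNA list had 7 of 14 lower and nuclear noncoding RNAs 4 of 18 lower. Among them were Meg3 with -1.98, Neat1 with -1.65, Gas5 with -1.27 and Snhg8 with -1.15. Lin28b had a ratio higher in EpiLC by 1.73 ± 0.29, with nESC levels of 1.57, 1.57 and 1.68 FPKM in nucleoplasm and 0.208, 0.128 and 0.161 in cytoplasm. With a pseudocount of 0.1 this difference was 0.93 and short of a call (adjusted p = 0.0771, limma).

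The largest differences came from genes that stood low in the nESC cytoplasm libraries. A pair of noncoding genes led them: Gm26917, whose clone name the naming rule leaves out, with -8.43 at a mean of 2.37 FPKM in nESC cytoplasm and 2134 in EpiLC cytoplasm, and AY036118 with -7.01 at means of 0.252 and 67.5. The mean of Gm26917 was 0 in chromatin of both states, and 6015 in EpiLC and 4926 in nESC total RNA. Which transcripts gave its reads was not tested. Hsp90aa1 stood at 1.31, 2.63 and 1.74 FPKM in nESC cytoplasm, with 2907, 2689 and 3177 in nESC nucleoplasm and 4281 as the nESC total mean. Its EpiLC ratio was lower by 6.75 ± 0.37 on the log2 scale (adjusted p = 2.54e-07, limma). Rrp1, a nucleolar protein of ribosome assembly, stood at 0.481, 0.546 and 0.581 FPKM in nESC cytoplasm and at 215, 213 and 217 in EpiLC cytoplasm. Its ratio in EpiLC was lower by 6.75 ± 0.09. No library of EpiLC cytoplasm shared these low levels. Exosc5 of the RNA exosome and Rrp36 had differences of -5.86 and -6.47. On the other side Mycbp2, a ubiquitin ligase, led the nuclear genes that the naming rule gave, with 2.22.

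**Figure D5:**
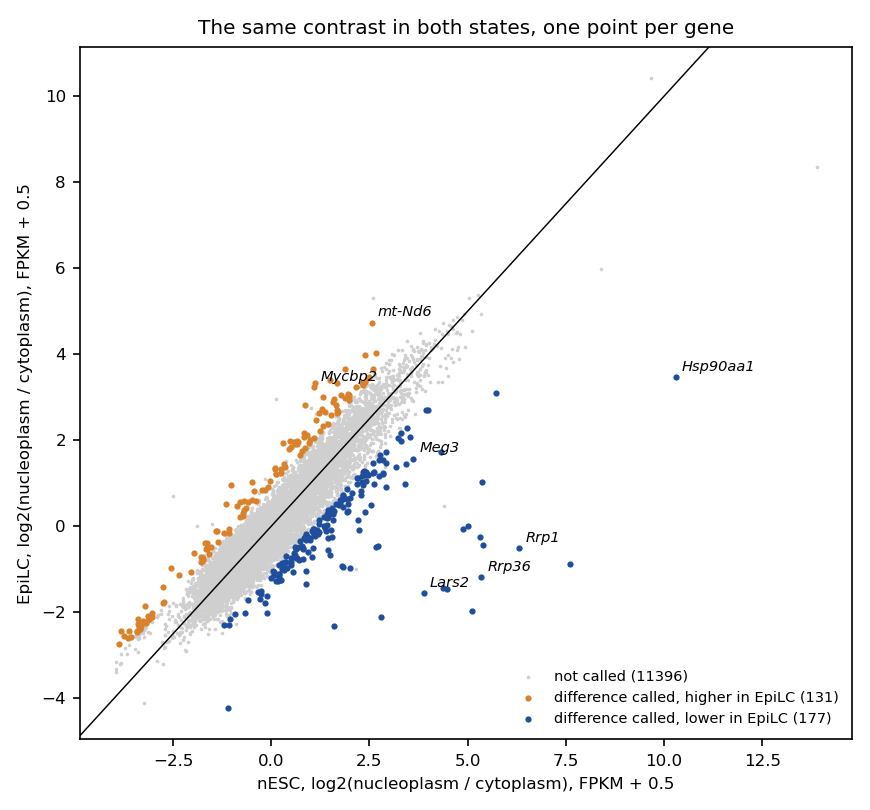
Log2 ratio of nucleoplasm to cytoplasm in nESC (horizontal axis) and EpiLC (vertical axis) for the 11704 genes tested in both states, with called differences coloured and the line of equal ratio. Most genes lie along the line, and Hsp90aa1, Rrp1 and Rrp36 lie far to the right of it.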

How the data were processed

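RNA sequencing libraries of E14 cells were made from TRIzol-extracted RNA after depletion of ribosomal RNA, with a stranded kit, per the labels' protocols. The authors deposited gene-level FPKM, and the submitters' processing notes name TopHat2, Cuffnorm and mm10 (GRCm38). The scaling of libraries is not given in the sources used here, nor are tool versions, gene models or whether counting used strand. Each state has its own table of 12 libraries.

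Symbols were matched for 29586 of 29759 genes by Ensembl ID. Positions, sequences, GC content and length came from GENCODE M21 (GRCm38) and covered 99.8% of genes tested. GC content and protein features came from the transcript with the longest complete reading frame, or from the longest transcript if none was complete. Exonic length is that of the merged exons of all transcripts of a gene. Genes averaging 1 FPKM or more over the 12 EpiLC libraries were tested on log2(FPKM + 0.5) in R 4.3.3 with limma 3.58.1 (two-sided, eBayes with trend), all 12 libraries fitted together. Calls needed a Benjamini-Hochberg adjusted p under 0.05 over all genes tested and a 2-fold difference. The difference from nESC was an interaction term over 12 libraries, after centring each on its median, since the tables may be scaled apart. Errors printed after a log2 value are standard errors of the fit, with 3 libraries in each group.

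Depth was read from the steps of low FPKM values, of which 78.7% to 90.5% in the 24 libraries lay within 0.1 steps of a whole multiple. Grouping followed the labels. Libraries were not paired by replicate number in the main fit. The deviations of same-numbered nucleoplasm and cytoplasm libraries from their group means correlated at 0.05, 0.08 and 0.18. Libraries of unlike number were not compared in this way, so these values do not decide whether the numbers pair them. A fit with a replicate block is given below. Of the genes tested, 302 overlap a more abundant gene on the same strand.

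Genes were named as follows: in each direction the 15 called genes of largest fold without overlap and with a mean of at least 5 FPKM in the higher group, clone and pseudogene names left out, from each list the 4 members or fewer of largest absolute fold, 22 chosen genes, and the 8 largest differences from nESC in each direction. For the differences the same names were left out, and the higher group of each state needed a mean of at least 5 FPKM. Part of the 174 genes so named are printed. H2afz, H2afx, H3f3b, Hras, Gm26917, Cmtr1 and Rpl12 are outside this rule and were chosen after their values were seen. The comparison, members, lists and tests were chosen with earlier results of these data known. Lists are described by counts and medians without a set test. The fit was tested on simulated data.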

Additional observations from a re-analysis of the deposited data

Results flagged for a closer look

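In 13 genes named above for this difference, the ratio of nucleoplasm to cytoplasm in EpiLC differed from that in nESC by the interaction test in limma. Other genes named above were called in it too, among them mt-Co1 with 1.10 and mt-Co3 with 1.70. Of the 13, the log2 difference, EpiLC minus nESC, was -8.43 for Gm26917, -7.01 for AY036118, -6.75 for Hsp90aa1, -6.75 for Rrp1, -6.47 for Rrp36 and -5.86 for Exosc5. It was -1.98 for Meg3, -1.65 for Neat1, -1.27 for Gas5 and -1.15 for Snhg8. It was 2.25 for mt-Nd6, 2.22 for Mycbp2 and 1.73 for Lin28b.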

How the results depend on the processing

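Library scaling moved the comparison of the fractions most. With each library scaled to one sum 5140 genes were higher and 219 lower, against 2579 and 2456, and the correction for length and GC content left 1002 lower. In the difference from nESC, 131 higher and 177 lower became 64 and 461 with the sum scaling, and the number higher became 383 without a filter and 48 with a mean of at least 5 FPKM. The replicate block gave 2579 and 2454 for the fractions and 139 and 175 for the difference. It changed no call of a named gene. Leaving out each compared library in turn gave 2479 to 2742 higher and 2289 to 2694 lower, and for the difference 113 to 195 higher and 163 to 204 lower. The highest of these came without EpiLC cytoplasm replicate 3. An arm left with 2 libraries was fitted with the shared spread.

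Of 81 genes named for the fractions 65 kept direction and side of the threshold under all alternatives run, and of 13 named for the difference 12 did. The correction moved 47 of 76 called log2 folds by over 1.5 times and the sum scaling 22. Genes near 0 changed sign: with the sum scaling Fgf5 came to 0.89, Gas5 to 1.01 and Neat1 to 0.63, with centring Dnmt3b to -0.14 and Otx2 to -0.17, with the correction Fgf5 to 0.17, and with one library left out Gas5 ran from -0.18 to 0.10 and Otx2 from -0.036 to 0.062. With pseudocounts of 0.1 and 1 the difference for Rrp36 was -8.38 and -5.55. The cause was not tested. Low cytoplasmic values rest on few fragments, and FPKM do not give amounts per cell.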

Other observations

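Genes with Rrp names, which serve in ribosome assembly, were looked at together after Rrp1 and Rrp36 had been seen. All 8 with a tested difference were called lower in EpiLC than in nESC in their ratio of nucleoplasm to cytoplasm. Of all genes tested for it, 1.51% were. Under 1 FPKM in nESC cytoplasm were 5 of the 8. Means of these 8 genes ran from 0.0479 to 67.2 FPKM in nESC cytoplasm and from 23.3 to 154 in nESC total RNA. In EpiLC cytoplasm they ran from 37.2 to 335. Genes without an Rrp name were called lower as well. Cmtr1 had means of 0.448 FPKM in nESC cytoplasm and 40.6 in EpiLC cytoplasm, and Rpl12 181 and 3497. In the whole ribosome biogenesis list 3 of 35 were called lower and 0 higher, with a median difference of 0.22.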
